A study of Mus musculus with 8 samples.

Results

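Glucocorticoid action in white adipose tissue was described through 10 genes, chosen by name, though with earlier results of these data known. They were Nr3c1, which encodes the glucocorticoid receptor, Hsd11b1, which encodes an enzyme that makes its ligand inside cells, and 8 genes known to be induced by glucocorticoids (Tsc22d3, Fkbp5, Zbtb16, Sgk1, Klf9, Errfi1, Mt1 and Mt2). All 10 had a probe set of their own on the array, among 18820 genes compared. RNA of 8 male mice was measured, 1 array per mouse, after 5 weeks on a high fat diet (Research Diets D12492). The 4 wildtype (WT) mice and the 4 mice with adipose-directed loss of Sel1l shared a C57BL/6 background of mixed N and J substrains. In the second group, called Sel1l-/- as in the labels, floxed Sel1l had been deleted by Cre recombinase under the adiponectin promoter. That promoter is active in adipocytes, so vascular, immune and stromal cells of the tissue were expected to keep the gene. Sel1l serves as adapter of a ubiquitin ligase with which the endoplasmic reticulum (ER) disposes of misfolded proteins. The sources used here do not give the age of the mice, the fat depot, litters or dates, or whether WT mice carried a floxed allele or Cre.

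Glucocorticoids cross the cell membrane and bind a receptor that waits in the cytosol with HSP90 and its co-chaperones. The bound receptor enters the nucleus, where it activates genes near its response elements and restrains inflammatory transcription factors. In fat, the enzyme encoded by Hsd11b1 turns inert 11-dehydrocorticosterone back into corticosterone, and glucocorticoids promote adipocyte differentiation and alter lipid turnover. The enzyme sits on the luminal side of the ER membrane, the compartment that Sel1l serves, and draws its cofactor from hexose-6-phosphate dehydrogenase (H6pd) there.

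Of the 10 genes, 1 differed between genotypes. Tsc22d3, which encodes the glucocorticoid-induced leucine zipper protein (GILZ), was lower in the Sel1l-/- mice, by 1.42-fold. None of the 10 was higher past the threshold, an adjusted p under 0.05 in limma. Over all genes, 1.72% passed that threshold in either direction, 1.04% higher and 0.685% lower, so 1 in 10 is a single gene against a low background. At an unadjusted p under 0.05 there were 4 of the 10 (Tsc22d3, Mt2, Hsd11b1 and Mt1), where 15% of all genes were so. The groups did not overlap in 3 of the 10 (Tsc22d3 lower, Mt1 and Mt2 higher), against 10.3% of all genes in either direction, 5.22% higher and 5.07% lower. Differences were negative in 8 of the 10 and positive in 2. Their median log2 difference was -0.12, and the median size without regard to sign was 0.23, against -0.0037 and 0.091 over all genes. The 10 were all fairly bright (percentiles 64.9 to 99.8 of the genes by mean), while the shares over all genes include dim ones. Genes of like brightness were not set beside the 10, so these contrasts are not particular to glucocorticoid genes. With the number in the titles as a block, the counts over all genes rose to 358 higher and 367 lower (3.85% in either direction) from 195 and 129, and the count among the 10 was again 1 lower. With a block for the letter or for the number in the mouse code of the labels, none of the 10 passed. Over all genes 7 were then higher and 13 lower for the letter, and 8 and 3 for the number.

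**Figure D1:**
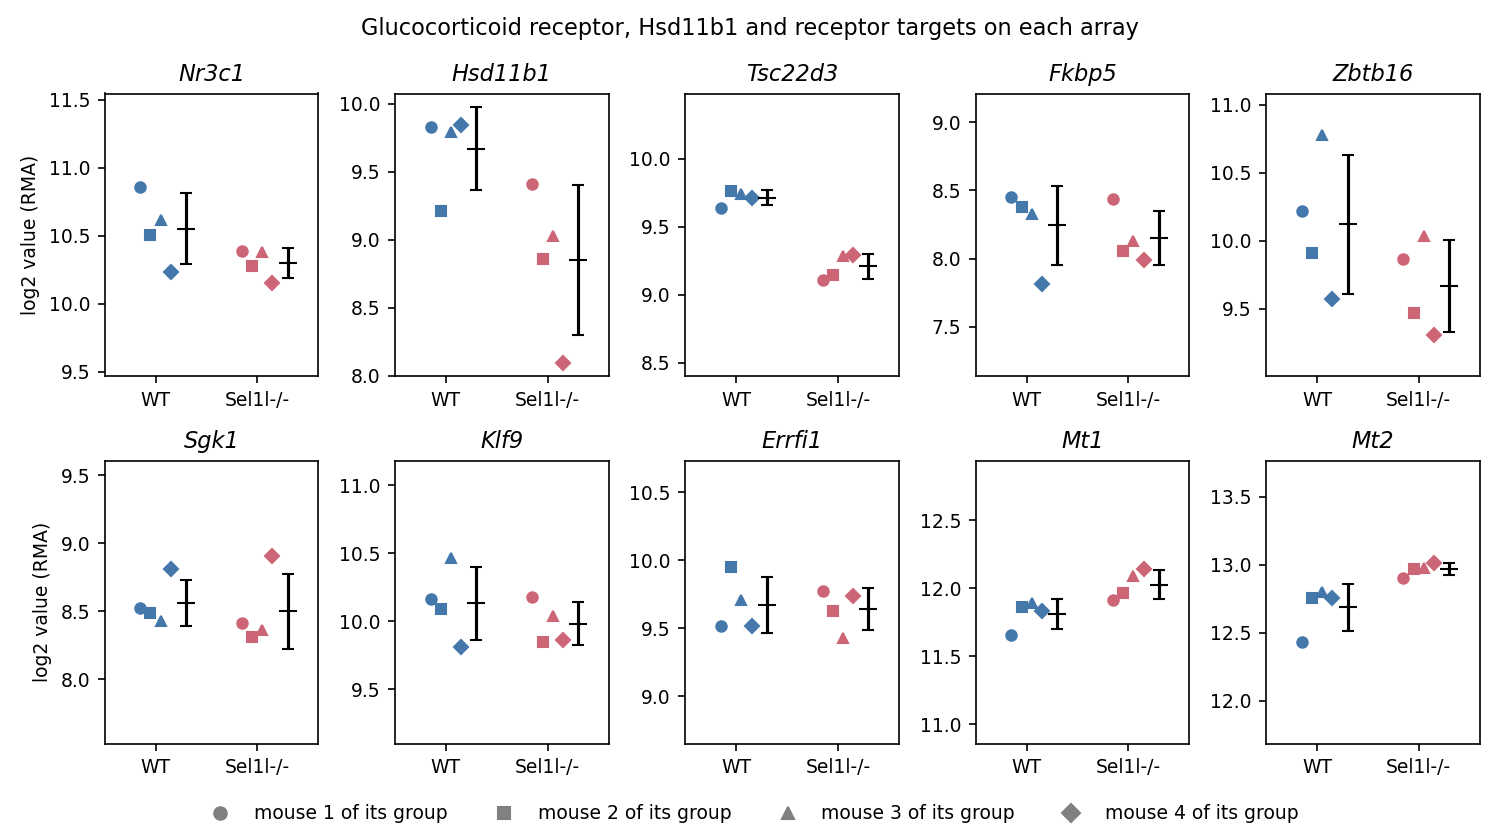
Each panel plots the log2 value of 1 gene (y axis, the same span in every panel) in WT (blue) and Sel1l-/- (red) mice, with a symbol for each mouse of a group and the mean ± SD (n = 4) in black beside the points. Tsc22d3 lies below the WT range in each Sel1l-/- mouse and Mt1 and Mt2 lie above it, while the groups overlap in the other 7 genes.

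The data can be set beside promoter sequence for a few of the genes. RefSeq promoter windows (build GRCm38.p6, 250 bases before to 50 after an annotated start) matched 8 of the 10 genes, with 16 windows in all, among them 6 for Sgk1 and 3 for Tsc22d3. They were searched on both strands for the full glucocorticoid response element (AGAACA, any 3 bases, then TGTTCT) and for the single hexamer AGAACA, which lies inside the full element. They were also searched for the core of the metal response element, written TGCACNC or TGCGCNC. The full element was in 3 of 32851 windows of all genes (0.00913%), and 1 of these belonged to Sgk1. The hexamer was in 19% of all windows and in 4 of the 16, of Sgk1 and Tsc22d3. A metal element core was in 25.7% of all windows and in 4 of the 16, of Mt1, Mt2, Hsd11b1 and Sgk1, a share at that background. Windows with 3 or more cores made up 1.97% of all, and both metallothionein windows were among them. A match describes these letters in these windows only, and binding was not measured.

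The stretch of the Sgk1 window at chr10:21993656-21993760 (plus strand) is shown for its full element, in capitals. The stretch of a Tsc22d3 window at chrX:140600657-140600752 (minus strand) is shown because this gene differed between genotypes, with the hexamer in capitals, where it lies on the other strand and so reads TGTTCT.

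Sgk1: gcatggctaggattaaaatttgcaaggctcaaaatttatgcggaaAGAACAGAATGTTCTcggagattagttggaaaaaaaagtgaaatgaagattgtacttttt
Tsc22d3: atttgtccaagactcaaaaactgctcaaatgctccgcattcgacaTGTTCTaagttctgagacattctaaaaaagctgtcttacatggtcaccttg

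The windows of Mt1 (chr8:94178839-94179138, plus strand) and Mt2 (chr8:94172368-94172667, plus strand) are shown because these neighbouring genes had the pair of positive differences. Capitals mark the metal element cores, 3 in Mt1 and 4 in Mt2.

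Mt1: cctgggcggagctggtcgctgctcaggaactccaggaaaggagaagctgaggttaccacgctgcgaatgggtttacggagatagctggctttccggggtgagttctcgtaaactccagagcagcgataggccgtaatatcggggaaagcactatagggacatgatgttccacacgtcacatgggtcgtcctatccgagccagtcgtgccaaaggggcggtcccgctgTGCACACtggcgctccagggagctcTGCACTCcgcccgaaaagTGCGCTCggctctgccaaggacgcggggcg
Mt2: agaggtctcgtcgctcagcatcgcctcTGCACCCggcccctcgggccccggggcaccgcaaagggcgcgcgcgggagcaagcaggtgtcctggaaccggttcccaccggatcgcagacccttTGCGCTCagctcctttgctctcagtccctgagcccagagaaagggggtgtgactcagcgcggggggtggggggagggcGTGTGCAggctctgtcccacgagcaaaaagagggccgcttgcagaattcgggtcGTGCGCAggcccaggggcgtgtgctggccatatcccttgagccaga

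Sel1l itself checked the labels. It read 10.48, 10.57, 10.58 and 10.65 in WT mice and 9.56, 9.78, 9.72 and 10.07 in Sel1l-/- mice, without overlap (log2 difference -0.79, standard error 0.10, limma adjusted p = 0.0109). Defining adipocyte markers were bright in both groups, with Adipoq, the adipokine adiponectin, at 12.72 ± 0.15 (SD, n = 4) for WT and 12.15 ± 0.24 for Sel1l-/- mice. Adipoq, chosen after its values were seen, was lower without overlap (log2 difference -0.56, limma adjusted p = 0.0753). It passed with the replicate block (0.0204), with array weights (0.0463) and without both arrays numbered 4 (0.0323). Adipoq also passed with the adipocyte covariate (0.0256), though it is part of that marker mean, so that fit is no separate check. With the letter block it differed by -0.29 (adjusted p = 0.708). Of 13 adipocyte markers, 12 had a negative difference, 3 of them without overlap, and none passed the threshold. Means of 8 epididymis markers (3.46 to 3.59) lay below the lower quartile of probe sets (4.33 to 4.37), and those of 11 skeletal muscle markers (4.70 to 4.93) somewhat above it. The muscle marker Acta1 was brighter, with 7.22 to 7.82 in WT and 6.92 to 7.46 in Sel1l-/- mice. The median of an array lay between 6.05 and 6.08 for WT and between 6.10 and 6.14 for Sel1l-/- mice. The labels also give a mouse code with a letter and a number of unstated meaning. Letter E is held by WT mice alone and letter G by Sel1l-/- mice alone, so a comparison within letters rests on the 3 mice with the letter F. With the letter or the number as a block Sel1l did not pass the threshold (adjusted p = 0.151 and 0.0813).

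The receptor was examined first among the 10. Nr3c1 read 10.86, 10.51, 10.61 and 10.23 in WT mice 1 to 4 and 10.39, 10.28, 10.38 and 10.16 in Sel1l-/- mice 1 to 4. The Sel1l-/- values all fell within or just below the WT range, since WT 4 was as low as they were. The log2 difference was -0.25 (95% interval -0.54 to 0.04, limma adjusted p = 0.408). The lowest mouse of each group was number 4. Without WT 1 the difference of Nr3c1 was -0.15, and a macrophage or adipocyte marker covariate gave -0.088 and -0.13. In the mice whose code holds the letter F, 1 WT (WT 4) and 2 Sel1l-/- mice, the difference was 0.10.

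Hsd11b1 had the largest difference of the 10 in size. It read 9.83, 9.21, 9.79 and 9.84 in WT mice and 9.41, 8.86, 9.03 and 8.10 in Sel1l-/- mice. WT 2 was low for its group and overlapped with Sel1l-/- 1, and Sel1l-/- 4 was lowest of all. The WT mean was 9.67 ± 0.31 and the Sel1l-/- mean 8.85 ± 0.55 (SD, n = 4), which differ by -0.82 on the log2 scale (95% interval -1.43 to -0.21, unadjusted p = 0.0141). Over all genes this did not pass the threshold (limma adjusted p = 0.194), and it did not in any of the 21 alternatives, whose differences ran from -1.01 to -0.57 except for the 3 added after the data were seen, at -0.51, -0.51 and -0.49. Same-numbered mice differed by -0.42, -0.36, -0.76 and -1.75.

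Sel1l-/- 4, the lowest mouse for Hsd11b1, had the lowest mean of 13 adipocyte markers (11.38, against 11.82 to 12.15 in WT and 11.91 to 12.00 in the other Sel1l-/- mice). It also had the highest mean of 14 macrophage markers (10.87, against 9.60 to 10.40 in WT mice and 9.98 to 10.42 in the other Sel1l-/- mice). Among the WT mice there was no single order. WT 4 had the lowest adipocyte mean (11.82) and the highest macrophage mean (10.40) of its group. Its Hsd11b1 (9.84) was the highest, barely above WT 1 (9.83). WT 2, the lowest WT mouse for Hsd11b1 (9.21), had the next highest macrophage mean (10.35) and the next lowest adipocyte mean (11.97). WT 1 and WT 3 had macrophage means of 9.60 and 9.67. With the adipocyte marker mean as a covariate the difference of Hsd11b1 was -0.51, and with the macrophage marker mean it was -0.49. In bulk tissue, fewer cells of a type and less RNA per cell cannot be told apart.

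Other genes that set the supply of active steroid were given as a list of 12 measured genes, which also holds the receptor gene Nr3c2. None passed the threshold, 3 had a positive and 9 a negative difference, and the median was -0.25. Of the 12, Akr1d1, Cyp11a1 and Serpina6 were dim (percentiles 5.8, 22.7 and 8.1 of the genes by mean). They differed by 0.019, 0.064 and -0.11. The smallest p values were those of Cbr1, a carbonyl reductase (log2 difference -0.30, limma adjusted p = 0.252), and Abcb1a, a pump that exports steroids (-0.29, adjusted p = 0.279). H6pd, the partner of Hsd11b1 in the ER lumen, and Nr3c2, the mineralocorticoid receptor, which also binds corticosterone, were chosen after their values were seen. H6pd read 11.23 to 11.76 in WT and 10.94 to 11.35 in Sel1l-/- mice (log2 difference -0.28, adjusted p = 0.367). Nr3c2 read 6.68 to 7.48 in WT and 6.41 to 6.67 in Sel1l-/- mice (-0.41, adjusted p = 0.332).

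Transcripts of proteins that hold the receptor or act with it were taken next. Of 13 measured chaperones and co-chaperones none passed the threshold, and their differences ran from -0.19 to 0.17. Ahsa1, an activator of HSP90, had a log2 difference of 0.17 (limma adjusted p = 0.172), and Fkbp4, the immunophilin that links the receptor to dynein, one of -0.19 (adjusted p = 0.308). Of 15 measured co-regulators none passed either, and their differences ran from -0.70 to 0.10. Nrip1, a co-repressor of nuclear receptors, differed by -0.50 (adjusted p = 0.194), and the replicate block lowered its adjusted p to 0.0283. With the letter block Nrip1 differed by -0.19 (adjusted p = 0.868) and with macrophage markers as a covariate by -0.30. Ppargc1a, a co-activator, differed by -0.70 (adjusted p = 0.287), with an adjusted p of 0.0481 under that block. With the letter block the difference of Ppargc1a turned to 0.17, and with the macrophage covariate it was -0.26.

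Tsc22d3 was the target that differed. GILZ, its product, binds NF-kappaB and AP-1 and carries part of the anti-inflammatory action of glucocorticoids, and it has been reported to restrain adipocyte differentiation. Tsc22d3 read 9.64, 9.76, 9.74 and 9.71 in WT mice and 9.11, 9.15, 9.28 and 9.29 in Sel1l-/- mice. The highest Sel1l-/- mouse lay below the lowest WT mouse, and the mice within a group were close together. The WT mean was 9.71 ± 0.06 and the Sel1l-/- mean 9.21 ± 0.09 (SD, n = 4), which differ by -0.50 on the log2 scale (standard error 0.06, 95% interval -0.65 to -0.36, limma adjusted p = 0.0102).

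The difference of Tsc22d3 was past the threshold without any 1 of the 8 arrays (adjusted p from 0.0150 to 0.0472) and with the replicate block (0.0187). A block for the code's letter (log2 difference -0.58, adjusted p = 0.155) or for its number (-0.51, adjusted p = 0.0797) ended the call. Mice of letter F differed by -0.58, and mice of number 5, 7 or 9 by -0.39, -0.56 or -0.60. Adding the macrophage or the adipocyte marker mean to the fit gave -0.55 and -0.54 (adjusted p = 0.00879 and 0.00937). Endothelial markers were lower in the Sel1l-/- mice as well. The mean of 12 such markers was 9.92 to 10.13 in WT and 9.42 to 9.76 in Sel1l-/- mice without overlap. Within groups Tsc22d3 was highest in WT 2 and Sel1l-/- 4, where this mean was lowest. Tsc22d3 spread little within groups (SD 0.06 in WT and 0.09 in Sel1l-/- mice), so no conclusion is drawn from that order. Pecam1, an endothelial adhesion molecule, was 1.31-fold lower (limma adjusted p = 0.0290). That call was lost without any 1 array (0.0503 to 0.102). Mesothelial markers were lower to a like extent, with 8 of 8 differences negative and a median of -0.37 against -0.36 for the 12 endothelial markers, though their means overlapped between groups (8.96 to 10.13 in WT and 8.62 to 9.45 in Sel1l-/- mice). The part of either cell type in the difference of Tsc22d3 was not tested.

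**Figure D2:**
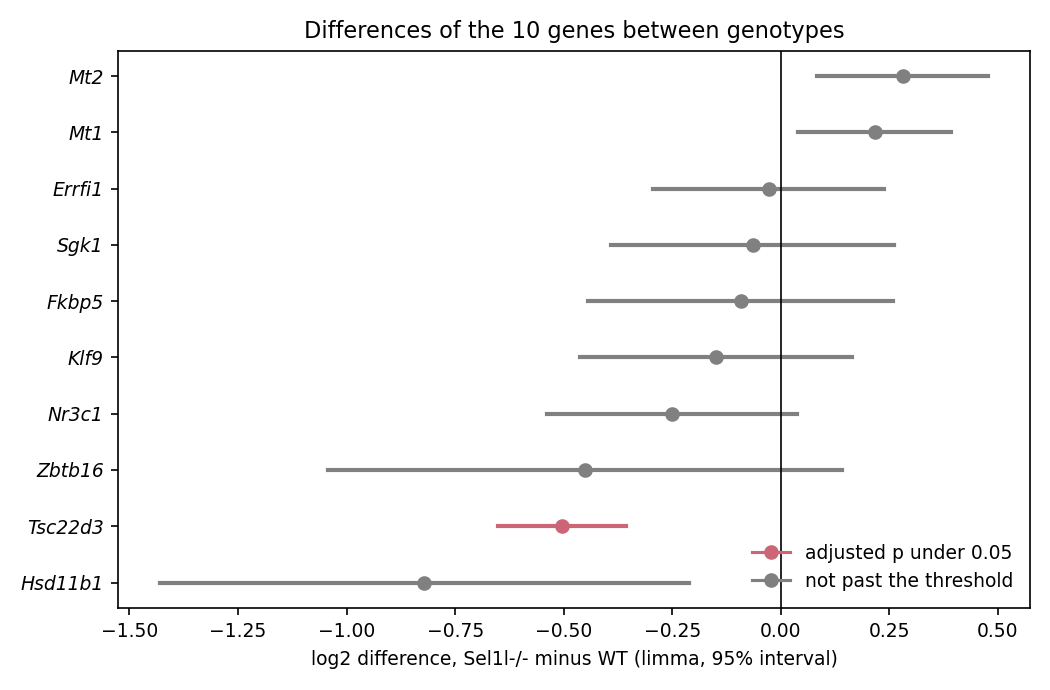
Points give the log2 difference of each gene (x axis, Sel1l-/- minus WT) and lines its 95% interval from limma, not adjusted for the number of genes. The interval of Tsc22d3 (red, adjusted p = 0.0102) runs from -0.65 to -0.36, that of Hsd11b1 is the widest, and those of Mt1 and Mt2 lie above 0.

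Fkbp5 encodes FKBP51, a co-chaperone that lowers the affinity of the receptor for hormone and so closes a feedback loop. It read 8.45, 8.38, 8.33 and 7.81 in WT and 8.43, 8.05, 8.13 and 7.99 in Sel1l-/- mice. The lowest and the highest mouse were both WT, so the groups overlapped fully. The log2 difference was -0.09 (95% interval -0.44 to 0.26, limma adjusted p = 0.837). It was -0.24 without WT 4 and -0.023 without WT 1, and its sign turned with the letter block and with either marker covariate.

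Zbtb16 encodes the zinc finger transcription factor PLZF, whose transcript rises strongly with glucocorticoids in many cells. It read 10.22, 9.91, 10.78 and 9.57 in WT and 9.87, 9.47, 10.03 and 9.31 in Sel1l-/- mice. Its spread was wide in both groups (SD 0.51 and 0.34), and mouse 3 was highest and mouse 4 lowest in each. The log2 difference was -0.45 (95% interval -1.04 to 0.14, limma adjusted p = 0.480). Same-numbered mice differed by -0.35, -0.45, -0.74 and -0.26, and with the replicate block the adjusted p was 0.0525. Without WT 3 the difference of Zbtb16 was -0.23, with the macrophage or adipocyte covariate it was -0.11 and -0.17, and with the letter block it was 0.095.

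Klf9, a Krüppel-like transcription factor, ran from 9.81 to 10.47 in WT and from 9.85 to 10.18 in Sel1l-/- mice (log2 difference -0.15, limma adjusted p = 0.678). Its second, dimmer probe set gave -0.14. The difference of Klf9 was -0.039 without WT 3 and -0.26 without WT 4, and it turned to 0.20 with the letter block. Errfi1 encodes MIG6, an inhibitor of the EGF receptor. It ran from 9.51 to 9.95 in WT and from 9.43 to 9.77 in Sel1l-/- mice (-0.03, adjusted p = 0.942). Sgk1 encodes a kinase that regulates ion channels, and it is the gene with the full element shown above. It read 8.53, 8.49, 8.43 and 8.81 in WT and 8.41, 8.31, 8.36 and 8.91 in Sel1l-/- mice, with mouse 4 highest in each group. The log2 difference of Sgk1 was -0.06 (95% interval -0.39 to 0.26, adjusted p = 0.879).

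Mt1 and Mt2 encode metallothioneins, small cysteine-rich proteins that bind zinc and copper and are induced by metals as well as by glucocorticoids. Mt2 read 12.43, 12.76, 12.80 and 12.75 in WT and 12.90, 12.97, 12.98 and 13.01 in Sel1l-/- mice. Mt1 read 11.65, 11.86, 11.89 and 11.84 in WT and 11.92, 11.97, 12.09 and 12.14 in Sel1l-/- mice. In both genes every Sel1l-/- mouse lay above every WT mouse, WT 1 was lowest and Sel1l-/- 4 was highest. The log2 difference was 0.28 for Mt2 (95% interval 0.08 to 0.48, unadjusted p = 0.0108) and 0.22 for Mt1 (0.04 to 0.39, unadjusted p = 0.0221).

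Neither metallothionein passed the threshold over all genes (limma adjusted p = 0.171 for Mt2 and 0.239 for Mt1), and neither did so in any of the 21 alternatives. Their differences were positive in all of these, from 0.18 to 0.32 for Mt2 and from 0.11 to 0.25 for Mt1. The genes are neighbours with no gene listed between them. How far their probe sets tell them apart was not tested. Both lay near the top of the scale (percentiles 98.6 and 99.8 of the genes by mean), and any compression of differences at such brightness was not tested either.

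Of 17 measured genes of zinc and copper handling, 1 was higher, 0 were lower, and the median log2 difference was 0.04. The 1 was Slc39a7, the zinc transporter ZIP7, which releases zinc from the ER. It read 9.0 to 9.25 in WT and 9.48 to 9.67 in Sel1l-/- mice, 1.34-fold higher (limma adjusted p = 0.0327). Centring each array on its median ended the call (0.0603), and so did leaving out 1 array in 6 of 8 cases (0.0764 to 0.106), those without WT 1, 2 or 3 or Sel1l-/- 1, 2 or 3. It was also lost with the letter block (0.491), the number block (0.0855), an ordinary test (0.0761) and both arrays numbered 4 left out (0.050).

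A longer list of genes known to be induced by glucocorticoids held 55 measured genes beside the 8 above. Of these, 2 were higher and 0 lower past the threshold (3.64%, against 1.72% of all genes), 23 had a positive and 32 a negative difference, and the median was -0.11. The replicate block raised the count to 10, 5 higher and 5 lower (18.2%, against 3.85% of all genes with that block), and with either mouse code block it was 0. The 2 higher genes are also induced by other stress signals. Lcn2, the acute phase protein lipocalin 2, read 9.47 to 10.73 in WT and 12.15 to 12.76 in Sel1l-/- mice, 5.12-fold higher (limma adjusted p = 0.00729). Gadd45a, a growth arrest gene, read 7.06 to 7.43 in WT and 7.90 to 9.20 in Sel1l-/- mice, 2.53-fold higher (adjusted p = 0.0337). Lcn2 was past the threshold without any 1 array, but not with the letter block (adjusted p = 0.20) or the number block (0.0614). Gadd45a was past it in 1 of the 8 fits without 1 array, that without Sel1l-/- 4, and in the other 7 its adjusted p was 0.0529 to 0.111. It was also lost with the letter block (0.242), the number block (0.140) and an ordinary test (0.118).

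In 7 genes of that list the Sel1l-/- mice all lay below the WT mice, and in 2 above them (of 55, where 5.07% and 5.22% of all genes did so). The 7 were chosen after their values were seen, and none passed the threshold. Per1, a clock gene with a response element of the receptor, read 9.54, 9.32, 9.64 and 9.27 in WT and 8.84, 8.89, 9.15 and 8.95 in Sel1l-/- mice (log2 difference -0.48, limma adjusted p = 0.0629, and 0.0330 with the replicate block). The letter block gave -0.40 for Per1, and its adjusted p was 0.216 with the number block and 0.0529 to 0.172 without 1 array. Agt, the precursor of angiotensin, had the largest of these differences, with 9.68 to 11.12 in WT and 8.49 to 9.44 in Sel1l-/- mice (-1.43, adjusted p = 0.0654). Agt passed with the replicate block (0.00679), with array weights (0.0242), without WT 4 (0.0243), without both arrays numbered 4 (0.0167) and with the macrophage or adipocyte marker mean as a covariate (0.0341 and 0.0406). With the letter block the difference of Agt was -0.44 (adjusted p = 0.758), with the number block its adjusted p was 0.208, and with the covariates it was -0.98 and -1.03. Rhob, a small GTPase, had a log2 difference of -0.40 (limma adjusted p = 0.0793), and passed with the arrays centred (0.0491), with array weights (0.0308), without Sel1l-/- 4 (0.0319) and without both arrays numbered 4 (0.0382). The letter block gave -0.37 for Rhob, and with the number block its adjusted p was 0.236. The other 4 were Dusp1, a phosphatase of MAP kinases (-0.29), Foxo1, a transcription factor (-0.33, adjusted p = 0.198, which the replicate block lowered to 0.0427, while the letter block gave -0.14), Nfkbia, the inhibitor of NF-kappaB (-0.26), and Orm1, an acute phase protein (-0.26).

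Of 22 measured genes known to be repressed by glucocorticoids, 1 was lower and 0 higher past the threshold (4.55%, against 1.72% of all genes). Their median log2 difference was -0.02. In 2 of the 22, Jun and Adipoq, the Sel1l-/- mice all lay below the WT mice, and in 0 above them (5.07% and 5.22% over all genes). Adipoq, described above as an adipocyte marker, is on this list too. Jun, a subunit of AP-1, read 9.76 to 10.04 in WT and 9.16 to 9.53 in Sel1l-/- mice, 1.45-fold lower (limma adjusted p = 0.0472). That call was lost without any 1 of the 8 arrays (adjusted p from 0.0516 to 0.137), with the replicate block (0.0700), the letter block (0.616), the number block (0.136) and an ordinary test (0.124). It was also lost without both arrays numbered 4 (0.0580) and with the macrophage or adipocyte marker mean as a covariate (0.0784 and 0.0707).

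**Figure D3:**
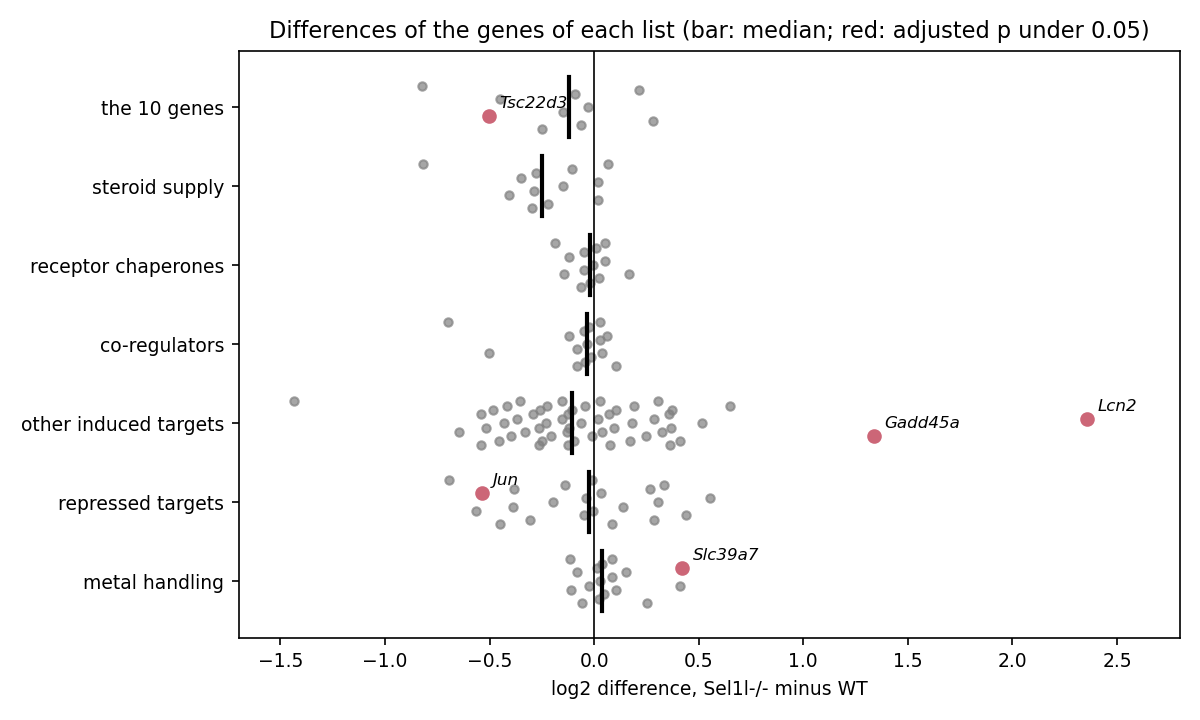
Each point is the log2 difference of 1 gene (x axis, Sel1l-/- minus WT), grouped by list (y axis), and black bars are list medians. Red points with a name passed an adjusted p under 0.05, and the medians run from -0.25 for steroid supply to 0.04 for metal handling.

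The mice of a group did not vary alike across the 10 genes. Mouse 4 was lowest of its group for Nr3c1, Fkbp5 and Zbtb16 and highest for Sgk1 in both genotypes. Among WT mice it was also lowest for Klf9, and among Sel1l-/- mice for Hsd11b1. WT 3 lay above the WT mean in 9 of the 10 genes and Sel1l-/- 2 below the Sel1l-/- mean in 8 of them. Tsc22d3 and Mt2 deviated little among the Sel1l-/- mice (SD 0.09 and 0.04), while Hsd11b1 had the widest spread there (0.55).

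Some marker means were at the edge of their group in the mice numbered 4. WT 4 had the lowest adipocyte and mesothelial marker means of its group (11.82 and 8.96) and the highest macrophage marker mean (10.40). The same was true of Sel1l-/- 4 (11.38, 8.62 and 10.87). For macrophage markers WT 2 (10.35) lay close to WT 4, while WT 1 and WT 3 were at 9.60 and 9.67. Sel1l-/- 1 to 3 were at 9.98, 10.42 and 10.33. Without both mice numbered 4, the difference was -0.31 for Nr3c1, -0.51 for Hsd11b1, -0.53 for Tsc22d3, 0.19 for Mt1 and 0.29 for Mt2. Tsc22d3 was then again the 1 of the 10 past the threshold (limma adjusted p = 0.0272). The part of cell composition in the spread between mice was not tested.

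**Figure D4:**
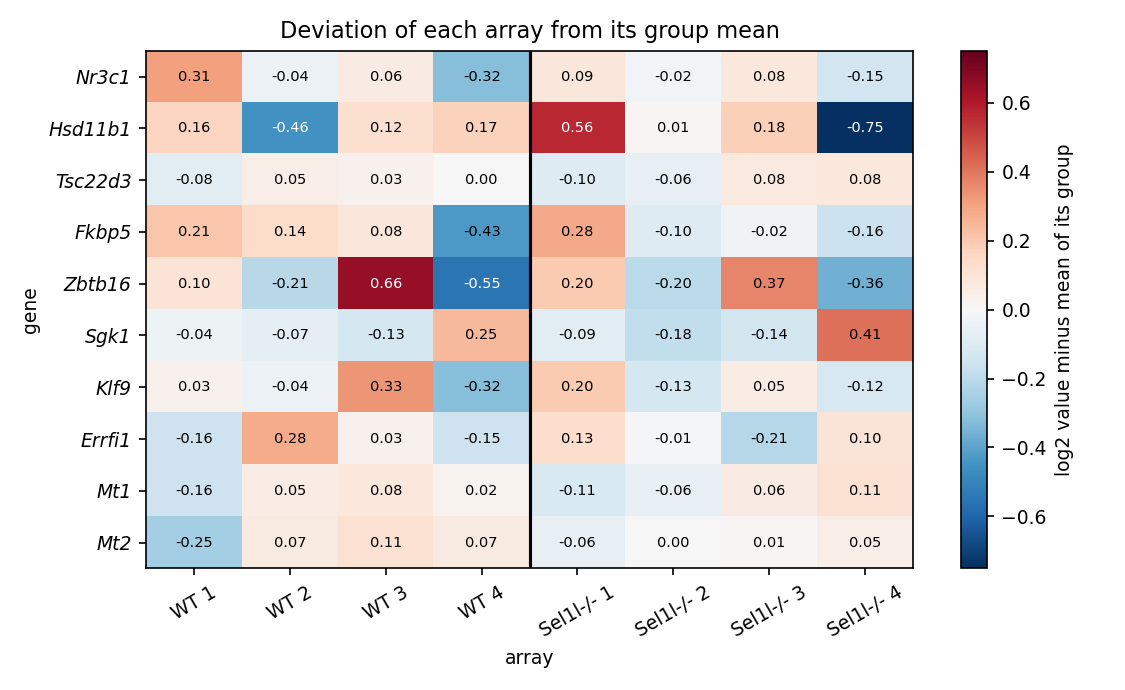
Colours and numbers give the log2 value of each gene (rows) on each array (columns) minus the mean of its own group, with a black line between WT and Sel1l-/- mice. The mice numbered 4 are blue for Nr3c1, Fkbp5, Zbtb16 and Klf9 and red for Sgk1 in both groups, and Hsd11b1 in Sel1l-/- 4 has the largest deviation, -0.75.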

How the data were processed

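White adipose RNA of 8 mice was hybridised as biotin-labelled whole-transcript cDNA, per the labels' protocols. The deposited log2 values were made by the authors with RMA, per the submitters' processing notes, which corrects background and equalises array distributions, so a shift of most transcripts would not show. The sources used here give neither version nor build, and that the scale is log2 was inferred from the range of the values. Of 35556 probe sets, 21218 carried 1 symbol in the platform annotation, 1881 several and 12457 none, and the brightest single-gene probe set by mean stood for each of 18820 genes. No dim gene was left out.

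The comparison used limma 3.58.1 (R 4.3.3). Its p-values are two-sided and adjusted by Benjamini and Hochberg's method across every gene, and the fit was tested on simulated data. Figures used Python 3.11.15 and matplotlib 3.10.9. The 10 genes and the lists were chosen with earlier results of these data known. Named genes are the 10, Sel1l, and in each other list up to 4 past the threshold, or else the 2 with the smallest p. Others are marked where they stand. Marker lists were summed up by their means, and Pecam1 and Adipoq were named.

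Both groups have mice numbered 1 to 4 in their titles. Deviations of same-numbered mice correlated at 0.107 to 0.524, those of other pairs at -0.489 to 0.328. The number was therefore tried as a block, a pairing that rests on these correlations, since no label states one. The letter and number of the mouse code, scaling, probe set choice, a filter on dim genes, moderation, array weights and each array left out were the other alternatives. Protein sequences were not used here.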

Additional observations from a re-analysis of the deposited data

Results flagged for a closer look

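In 3 of the 22 groups of 4 mice examined, 1 mouse stood far from the other 3 by Dixon's criterion, which chance meets in about 1 in 20 groups. Hsd11b1 was 9.21 in WT 2, where the nearest WT mouse had 9.79. Sgk1 was 8.91 in Sel1l-/- 4, where the nearest Sel1l-/- mouse had 8.41. Mt2 was 12.43 in WT 1, where the nearest WT mouse had 12.75.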

How the results depend on the processing

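No alternative put any of the 10 genes past the threshold as higher, and the count lower was 1 except for 0 with a block for the letter or for the number in the mouse code. Several signs turned. With the letter block the difference became 0.10 for Nr3c1, 0.43 for Fkbp5, 0.10 for Zbtb16, 0.20 for Klf9 and 0.18 for Errfi1. For Ppargc1a it became 0.17 and for H6pd 0.012. That block compares WT 4 alone with Sel1l-/- 1 and Sel1l-/- 2, the mice of letter F. WT 4 was the lowest WT mouse for each of these genes except Errfi1. The marker covariates turned further signs. The difference became 0.084 for Fkbp5 and 0.019 for Klf9 with macrophage markers as a covariate, and 0.052 for Fkbp5 with adipocyte markers. Without 1 array Sgk1 ran from -0.20 to 0.017, positive without WT 4, and Errfi1 from -0.081 to 0.065, positive without WT 2 and without Sel1l-/- 3. Beyond what the letter block compares, the causes were not tested. Hsd11b1, Tsc22d3, Mt1 and Mt2 kept their sign in all 21 alternatives. Sel1l was no longer past the threshold with the letter block (-0.98), the number block (-0.80) and an ordinary test (-0.79). Without 1 array its difference ran from -0.88 to -0.71.

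Counts over all genes, 195 higher and 129 lower, became 119 higher with the arrays centred, where 154 were lower, 358 and 367 with the replicate block, 7 and 13 with the letter block and 8 and 3 with the number block. They were 87 and 37 in an ordinary test, 347 and 219 with array weights, and 66 to 244 higher and 31 to 140 lower without 1 array. With the macrophage and adipocyte covariates 306 and 334 were higher. The 4 genes of the other lists past the threshold became 14 with the replicate block, 0 with either mouse code block, 1 in an ordinary test, 7 with array weights, 7 with either covariate and 1 to 5 without 1 array. The covariates and the removal of both arrays numbered 4 were chosen after seeing the data. With 4 arrays a group, precision is limited by their number.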
